A study of Mus musculus with 16 samples.

Results

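Homeobox and related developmental transcription factor genes were described across 6 histone marks in jejunal epithelial cells with and without the corepressor NCoR1. The set held 101 of 21706 protein-coding genes of the mm9 gene models. It was defined by gene symbol, and the families were chosen with earlier results of these data known. It comprised the 39 Hox genes of the 4 Hox clusters and 14 Nkx, 13 Tbx, 9 Pax, 8 Lhx, 6 Irx and 6 Dlx genes, with the 6 genes of the sine oculis-related family. Tbx genes encode T-box proteins, and several Pax proteins bind DNA through a paired domain without a full homeodomain, so the set is wider than the homeobox class. A region belonged to a gene of the set when its summit lay within 50 kb of a transcript start of that gene and no other protein-coding start was nearer.

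Epithelial cells were isolated from the jejunum of C57BL/6 neonates at postnatal day 12 and profiled by ChIP-seq. The mice were wild type (WT, named F/FUN in the study) or carried an intestinal deletion of NCoR1 (KO, named ΔIECUN), and no treatment is named for either genotype. Each mark had 1 library per genotype, so no difference could be set against replicate error, no test between genotypes was made, and every count below describes these libraries. A deposited list gives the places where tags of a mark were denser in the library of a genotype than in its counterpart, and its regions are termed WT-higher or KO-higher accordingly. The fold given for a region is the authors' ratio of the pileup, the height of stacked tags at the summit, to the background around it in the library of the opposite genotype. A fold states a difference between libraries and not the level of a mark. The promoter that drives the deletion and the number of mice per library are not given in the sources used here.

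Homeodomain proteins bind short AT-rich sites and set position and cell identity in the embryo. Hox genes sit in clusters whose gene order follows their order of expression from head to tail, and in adult tissues many genes of these families are kept silent by Polycomb complexes on CpG-rich chromatin. H3K4me3 is found at active and poised promoters and H3K4me1 at enhancers, whereas the acetylated forms H3K9ac and H3K27ac occur at both when they are in use. These 4 are called active marks here. H3K27me3, deposited by Polycomb repressive complex 2, and H3K9me3 mark repressed chromatin. NCoR1 brings the histone deacetylase HDAC3 to nuclear receptors and other DNA-bound repressors.

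Sequencing gave 27946003 to 47976125 tags per ChIP library (12 libraries), and duplicate removal reduced them to 23925163 to 32444815. The share left was 56.0% to 90.0%, lowest for H3K9ac. The KO lists of H3K4me1 and H3K27me3 repeat the regions of the WT lists, so 10 of the 12 lists were used, with 23511 regions, and KO-higher regions of these 2 marks were not analysed here. The lists hold differences, so the labelled cell type could not be checked against marker levels. Of 13 epithelial markers, 9 had a KO-higher active region and 2 a WT-higher one, while none of the 10 stromal, 10 enteric nerve and glia or 10 immune markers had a KO-higher active region. WT-higher active regions were found at 2, 3 and 2 of these markers, and their part in the results below was not tested. Among all protein-coding genes, 12.4% had a KO-higher and 27.6% a WT-higher active region. Counts at the stromal, nerve and glia, and immune markers are near these shares. The 9 epithelial markers include Vil1, with KO-higher regions of both H3K4me3 and the repressive mark H3K9me3 (highest folds 50.9 and 71.0).

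The regions that the results turn on are printed here from the mm9 genome, plus strand, with every CpG in capitals and other bases in lower case. They show the acetylated Hox region with the highest fold (Hoxc4), a distal H3K4me3 region (Irx2), distal sites shared by several marks (Irx3, Lhx5), the H3K27me3 region inside a Hox cluster (Hoxb3) and the KO-higher active region (Tbx19). The first 5 are WT-higher.
Hoxc4 H3K9ac region, chr15:102891962-102892157: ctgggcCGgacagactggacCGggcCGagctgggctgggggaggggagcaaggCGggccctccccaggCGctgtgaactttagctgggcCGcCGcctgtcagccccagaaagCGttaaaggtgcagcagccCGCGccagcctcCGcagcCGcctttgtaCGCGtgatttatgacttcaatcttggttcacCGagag
Irx2 H3K4me3 region, chr13:72777355-72777557: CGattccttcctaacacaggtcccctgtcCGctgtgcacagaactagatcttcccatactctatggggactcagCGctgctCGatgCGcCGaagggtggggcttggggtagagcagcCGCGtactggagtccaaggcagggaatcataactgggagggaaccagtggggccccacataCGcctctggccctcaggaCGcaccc
Irx3 H3K9ac region, first 300 bases, chr8:94360838-94361137: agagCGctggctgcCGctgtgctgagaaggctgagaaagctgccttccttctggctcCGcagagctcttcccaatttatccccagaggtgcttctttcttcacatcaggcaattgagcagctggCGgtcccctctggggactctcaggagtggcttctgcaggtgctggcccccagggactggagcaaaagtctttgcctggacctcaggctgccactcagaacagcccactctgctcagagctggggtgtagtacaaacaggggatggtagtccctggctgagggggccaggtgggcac
Lhx5 H3K27ac region, chr5:120854795-120854955: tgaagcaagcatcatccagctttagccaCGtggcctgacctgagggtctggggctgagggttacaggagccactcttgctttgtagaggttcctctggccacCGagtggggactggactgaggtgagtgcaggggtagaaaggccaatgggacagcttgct
Hoxb3 H3K27me3 region, chr11:96187926-96188082: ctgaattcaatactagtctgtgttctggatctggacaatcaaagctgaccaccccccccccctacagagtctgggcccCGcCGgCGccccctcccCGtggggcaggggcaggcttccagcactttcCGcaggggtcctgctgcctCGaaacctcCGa
Tbx19 H3K27ac region, chr1:167088300-167088470: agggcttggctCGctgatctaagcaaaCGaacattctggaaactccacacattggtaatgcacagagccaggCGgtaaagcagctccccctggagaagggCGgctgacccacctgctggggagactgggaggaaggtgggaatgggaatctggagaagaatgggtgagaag
The Hoxc4 region holds 15 CpG in 196 bp. The Irx3 stretch holds 4 in 300 bp and the Lhx5 region 2 in 161 bp. Observed over expected CpG was 0.709 for Hoxc4, 0.528 for Irx2, 0.458 for Hoxb3 and 0.317 for Tbx19. For Irx3 it was 0.148 and for Lhx5 0.157, so these 2 printed stretches lay outside CpG-rich sequence. Other upstream sites differed: the H3K4me1 regions 33638 bp upstream of Lhx5 and 29771 bp upstream of Irx3 had ratios of 0.782 and 0.481.

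Regions of active marks at these genes were almost all WT-higher, with H3K4me1 listed in that direction only. Of the 82 regions assigned to the set over the 10 lists, 77 were WT-higher and 5 KO-higher. The 77 include 18 of H3K4me1 and 2 of H3K27me3, whose direction was fixed because no KO list of these marks was used. For H3K4me3, H3K9ac and H3K27ac, WT-higher regions numbered 39, 6 and 8, and KO-higher ones 0, 0 and 1. WT-higher regions of the 4 active marks numbered 71, which is 0.612% of the 11601 regions of those lists (95% Wilson interval 0.486% to 0.771%). KO-higher regions of the 3 active marks with a KO list numbered 1, which is 0.0110% of 9125 (0.00193% to 0.0621%). At least 1 WT-higher active region was found at 43 of the 101 genes (42.6%), beside 27.6% of all protein-coding genes. A KO-higher active region was found at 1 gene (0.990%), beside 12.4% of all protein-coding genes. For H3K4me3, H3K9ac and H3K27ac, the 3 active marks with lists in both directions, WT-higher regions lay at 35 genes (34.7%), beside 23.7%. Of the sequence within 50 kb of a protein-coding start, 4.95 of 1249 Mb was nearest to a start of the set. Intervals cover counting error only.

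Across all lists 46 genes (45.5%) had a region, beside 38.6% of all protein-coding genes, and 55 had none. Regions in a single list were found at 32 genes, in 2 lists at 10, in 3 lists at 2, in 4 lists at Lhx5 and in 5 lists at Irx3. The share with any WT-higher active mark came down to 18.8% (19 genes), beside 17.5% of all genes, when only regions within 1 kb of a start were counted. The difference from all genes was thus smaller at starts than over 50 kb.

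**Figure D1:**
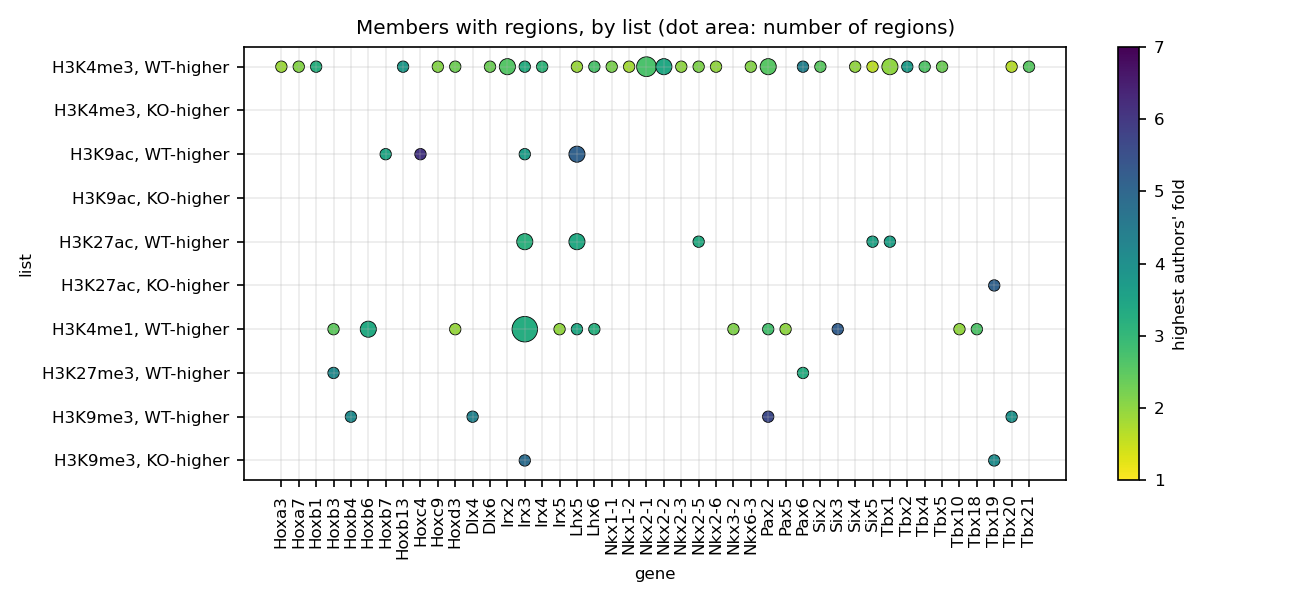
Most genes of the set with at least 1 region (horizontal) against the 10 lists (vertical), with dot area for the number of regions and colour for the highest authors' fold. The WT-higher H3K4me3 row holds the most dots, and the 3 KO-higher active rows hold Tbx19 alone.

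H3K4me3 gave the most regions of the set. WT-higher H3K4me3 regions lay at 33 of 101 genes (32.7%, 95% Wilson interval 24.3% to 42.3%), beside 15.3% of all protein-coding genes. They numbered 39, of the 4166 in the list. No gene of the set had a KO-higher H3K4me3 region (an upper Wilson bound of 3.66%), beside 0.299% of all genes (0.0783% within 1 kb and 0.240% from 1 to 50 kb), in a list of only 131 regions. Within 1 kb of a start the share was 13.9% (14 genes), beside 12.1% of all genes. From 1 to 50 kb it was 21.8% (22 genes), beside 3.92% of all genes, and 3 genes had regions in both ranges. At a −log10 q of at least 5 the count fell from 33 to 8 of 101 genes (beside 5.75% of all genes) and at 1 to 50 kb from 22 to 4 (beside 1.41%). The gap to all genes was thus smaller at that setting. When starts of noncoding genes competed for regions too, the count at 1 to 50 kb was 13 (beside 2.95%).

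The position of these regions differed from that of the whole list. Of the 39 regions, 14 (35.9%, Wilson interval 22.7% to 51.6%) lay within 1 kb of a start, 14 at 1 to 5 kb and 11 (28.2%) at 5 to 50 kb. Of the 3789 regions of the list within 50 kb of any start, 75.0% lay within 1 kb, 8.10% at 1 to 5 kb and 16.9% at 5 to 50 kb. The territory in which a summit is nearest to a gene's start had a median of 46.2 kb for the set and 45.1 kb for all genes. Per megabase of that territory there were 7.87 H3K4me3 regions for the set and 3.03 for all genes. Of the 39 regions, 15 lay upstream of the nearest start, 24 lay downstream of it, and 14 lay between annotated genes.

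Start sites of the set were CpG-dense more often than those of all genes, and the part of this in the H3K4me3 result was not tested. Only the start at the 5-prime end of each gene model was examined, although regions were assigned by any transcript start. Such a start was CpG-dense when the 1001 bp around it had an observed over expected CpG of at least 0.6 and GC of at least 50%. This held for 61 of 101 genes (60.4%) and 44.1% of all genes. Among genes with such a start, a WT-higher H3K4me3 region within 50 kb was found at 24 of the 61 (39.3%), beside 22.4% of all such genes. Within 1 kb it was found at 14 of the 61 (23.0%), beside 19.5%. GC content differed by direction: the median GC of KO-higher H3K4me3 regions was 54.0% and that of WT-higher ones 64.6%. Only 329 of the 4166 WT-higher regions had a GC content at or below the KO-higher median. With these alone 5 genes of the set (beside 0.977% of all genes) had a region, all 5 of them 1 to 50 kb from a start, where the share for all genes was 0.779%. The part of GC content in the WT-higher direction was not tested.

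**Figure D2:**
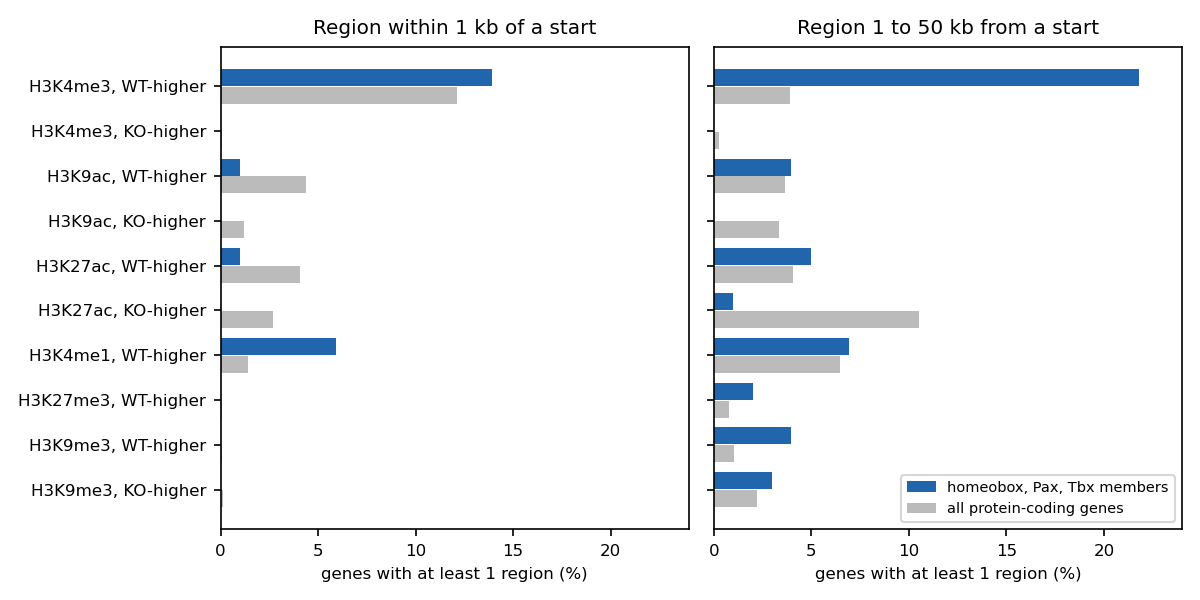
Percent of the 101 genes (blue) and of all 21706 protein-coding genes (grey) with at least 1 region in each list, within 1 kb of a start (left) and 1 to 50 kb from one (right). The widest gaps are in the right panel, at 21.8% against 3.92% for WT-higher H3K4me3 and 0.990% against 10.5% for KO-higher H3K27ac.

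H3K4me1 was the other mark with many regions. WT-higher H3K4me1 regions lay at 13 genes (12.9%, Wilson interval 7.68% to 20.8%), beside 7.61% of all genes, and numbered 18. Within 1 kb of a start the count was 6 genes (5.94%), beside 1.38%, and from 1 to 50 kb it was 7 genes (6.93%), beside 6.46%. At a −log10 q of at least 5 the count over 50 kb fell from 13 to 4 genes, beside 3.44% of all genes, so that the share was then near that of all genes. The 6 genes with H3K4me1 at a start were Hoxb3, Irx5, Lhx6, Nkx3-2, Tbx10 and Tbx18, of which Irx5, Nkx3-2, Tbx10 and Tbx18 fall outside the rule for named genes and were named after their values were seen. Folds of these 18 regions had a median of 2.36, below the median of 2.94 for the list.

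Acetylation gave few regions. WT-higher H3K9ac regions lay at 5 genes (4.95%), beside 7.62% of all genes, and WT-higher H3K27ac regions at 6 genes (5.94%), beside 7.57%. These shares are near those of all genes. Within 1 kb of a start each mark lay at 1 gene (0.990%), beside 4.39% and 4.07% of all genes. From 1 to 50 kb H3K9ac lay at 4 genes (3.96%), beside 3.63%, and H3K27ac at 5 (4.95%), beside 4.05%. KO-higher H3K9ac regions lay at none (upper Wilson bound 3.66%), beside 4.02% of all genes (1.21% within 1 kb and 3.34% from 1 to 50 kb). KO-higher H3K27ac regions lay at 1 gene (0.990%, interval 0.175% to 5.40%), beside 11.6% of all genes (2.69% within 1 kb and 10.5% from 1 to 50 kb), in the longest list, with 7111 regions. Per megabase of territory that list had 0.202 regions for the set and 5.02 for all genes.

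A region of any list lay at 12 of the 39 Hox genes and at 34 of the 62 others, beside 38.6% of all protein-coding genes. WT-higher H3K4me3 lay at 7 Hox genes, near the 15.3% of all genes, and at 26 of the others. The difference between Hox genes and the others was not tested. All 17 regions assigned to Hox genes were WT-higher, and 16 of them lay inside the clusters. The 17 include 4 of H3K4me1 and 1 of H3K27me3, whose direction was fixed because no KO list of these marks was used. The Hoxb cluster (chr11:96055630-96229570, 173.9 kb, 10 genes) held 8 regions of 5 marks. The Hoxa cluster (105.5 kb, 11 genes) held 5 and the Hoxd cluster (chr2:74506367-74603200, 96.8 kb, 9 genes) held 2. In the Hoxc cluster (chr15:102751534-102867274, 115.7 kb, 9 genes) there was 1, and no cluster held a KO-higher region. Among all protein-coding genes, 12.4% had a KO-higher active region.

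**Figure D3:**
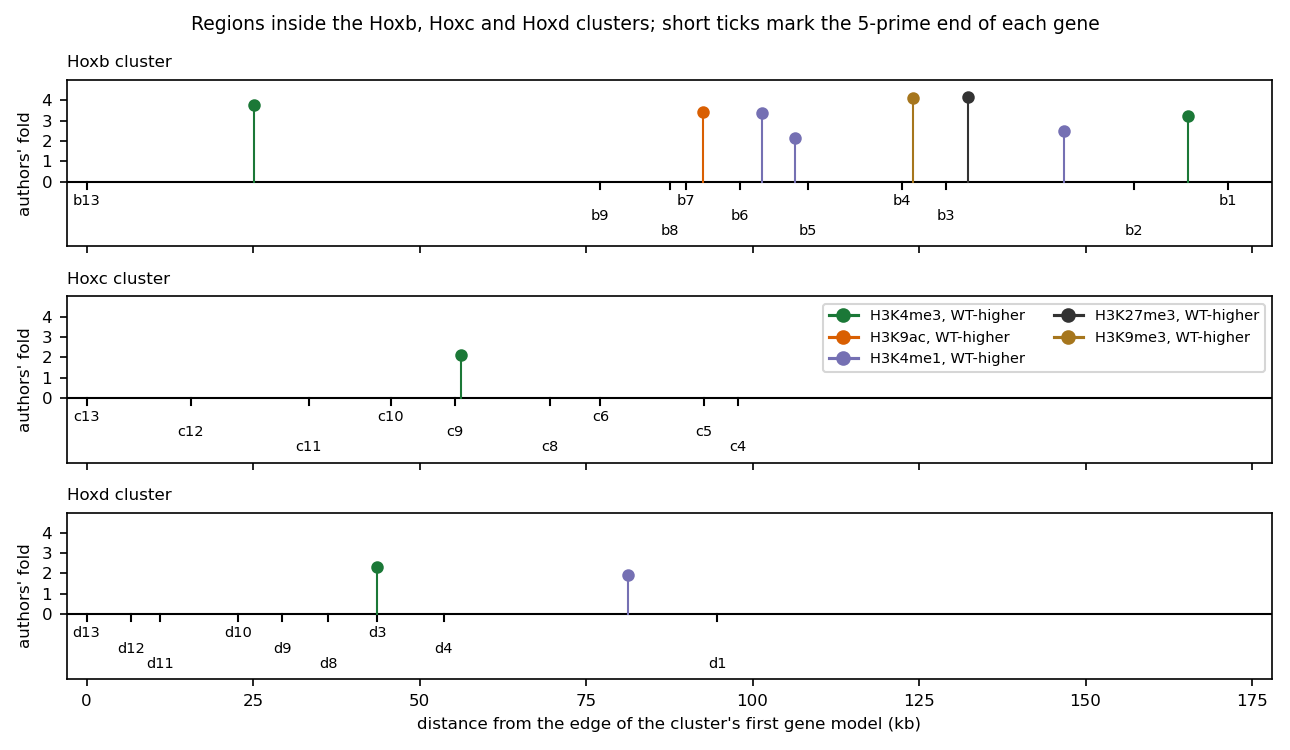
The Hoxb, Hoxc and Hoxd clusters drawn to one scale, with the distance from the edge of the first gene model on the horizontal axis (kb) and the authors' fold of each region on the vertical axis, coloured by mark. The Hoxb cluster holds 8 of the 11 regions drawn, and ticks mark the 5-prime ends of genes, so a region at an inner transcript start can stand away from its gene's tick.

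Among paralogue groups, the sets of Hox genes at matching places in the clusters, groups 3 and 7 had a region at every gene. For group 3 these were Hoxa3 (H3K4me3, fold 1.87), Hoxb3 (H3K4me1, fold 2.47) and Hoxd3 (H3K4me3, fold 2.30).

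For group 7 they were Hoxa7 (H3K4me3, pileup 110, fold 2.09) and Hoxb7 (H3K9ac, pileup 18, fold 3.45). Groups 2, 5, 8, 10, 11 and 12 had no region at any gene. The posterior genes (groups 9 to 13), which pattern the hind end of the body, held regions only at Hoxc9 (H3K4me3, fold 2.1) and Hoxb13 (H3K4me3, fold 3.78). Each is 1 of 4 genes of its group. Of all protein-coding genes 38.6% had a region, and a pattern along the clusters was not tested. The Hoxb13 region lay 25170 bp downstream of its start, between genes, with a GC content of 48.8%. Hoxb1 had an H3K4me3 region of fold 3.22 that lay 6105 bp upstream of its start. The pileups of these regions, 19 and 16, were low.

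Hoxb6 held 2 H3K4me1 regions (folds 3.35 and 2.13), in an intron and a coding exon. Hoxd3 also had an H3K4me1 region of fold 1.92, 3993 bp past one of its starts, in a noncoding exon of 6720416L17Rik. It lay apart from the H3K4me3 region of Hoxd3, which was 31 bp from another start. Hoxc4 had the H3K9ac region with the highest fold of the set (chr15:102891962-102892157, pileup 16, fold 6.07), above 98.0% of the regions of its list. It lay 27207 bp from the start, past the end of the cluster and between genes. Repressive marks also stood in the Hoxb cluster. An H3K27me3 region (chr11:96187926-96188082, fold 4.15) lay in an intron of Hoxb3, and an H3K9me3 region (fold 4.13) in a UTR of Hoxb4, both WT-higher.

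Irx3, an Iroquois homeobox gene of neural and limb patterning, had regions in more lists than any other gene of the set. Its 9 WT-higher active regions comprised 1 of H3K4me3 (3650 bp downstream of the start, fold 3.29), 2 of H3K27ac, 1 of H3K9ac and 5 of H3K4me1. The acetylated and H3K4me1 regions spanned 29771 to 49954 bp upstream, between genes. At a site about 35 kb upstream, the H3K27ac region (chr8:94360843-94361154, pileup 64.5, fold 2.43) and the H3K9ac region (pileup 39, fold 3.66) shared 312 bp, with summits 2 bp apart. An H3K4me1 region (pileup 68, fold 1.87) shared 242 bp with each. A second H3K27ac region, 48184 bp upstream, had a fold of 3.18.

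The H3K4me1 folds at Irx3 were 1.87 to 3.26. The same gene had a KO-higher H3K9me3 region (fold 4.89, pileup 14) 45900 bp downstream of its start. This region and the farthest H3K4me1 and H3K27ac regions lie just inside the limit of 50 kb. Just outside it lay a KO-higher H3K27ac region of Dlx2 (57232 bp, fold 4.92) and a WT-higher H3K9me3 region of Pax7 (53563 bp, fold 5.62). The noncoding gene D230002A01Rik starts nearer than Irx3 to each of the Irx3 regions, so the assignment of these to Irx3 depends on counting protein-coding starts alone. Related Irx genes had H3K4me3: the Irx2 region printed above (pileup 92, fold 2.58, −log10 q 10.1) lay 7443 bp past its start. Irx2 was chosen after its values were seen.

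Lhx5, a LIM homeobox gene of the developing forebrain, had 6 regions of 4 active marks. Upstream, an H3K27ac region (chr5:120854795-120854955, pileup 66.5, fold 3.37) and an H3K9ac region (pileup 32, fold 5.14) shared 127 bp with summits 1 bp apart, 27017 and 27016 bp from the start. A second H3K27ac region (fold 3.16) lay 26134 bp upstream, and an H3K4me1 region (fold 3.40) 33638 bp upstream. In an intron of Lhx5, an H3K4me3 region (fold 1.90) and an H3K9ac region (fold 4.07) shared 205 bp, 4223 and 4351 bp from the start. Lhx6, a LIM homeobox gene of cortical interneurons, had H3K4me3 (fold 2.71) and H3K4me1 (fold 3.20) regions 27 and 94 bp from its start. The remaining 6 Lhx genes had no region.

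Sites shared between marks were few. Of the 82 regions, 10 shared at least 1 base with a region of another list, and they belonged to 3 genes, Irx3 and Lhx5 among them. For H3K4me3 this was 2 of 39 regions (5.13%), beside 15.7% of the list. For H3K9ac it was 4 of 6, beside 33.5%, for H3K27ac 3 of 8, beside 29.9%, and for H3K4me1 1 of 18, beside 10.4%. WT-higher H3K4me3 together with another WT-higher active mark was found at 9 genes, among them Hoxd3, Irx3, Lhx5, Lhx6, Nkx2-5, Pax2, Six5 and Tbx1. The share of all genes with such a pair was not computed, so whether 9 is many or few is unknown. At 2 of the 9 genes the H3K4me3 region itself shared bases with the other mark.

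**Figure D4:**
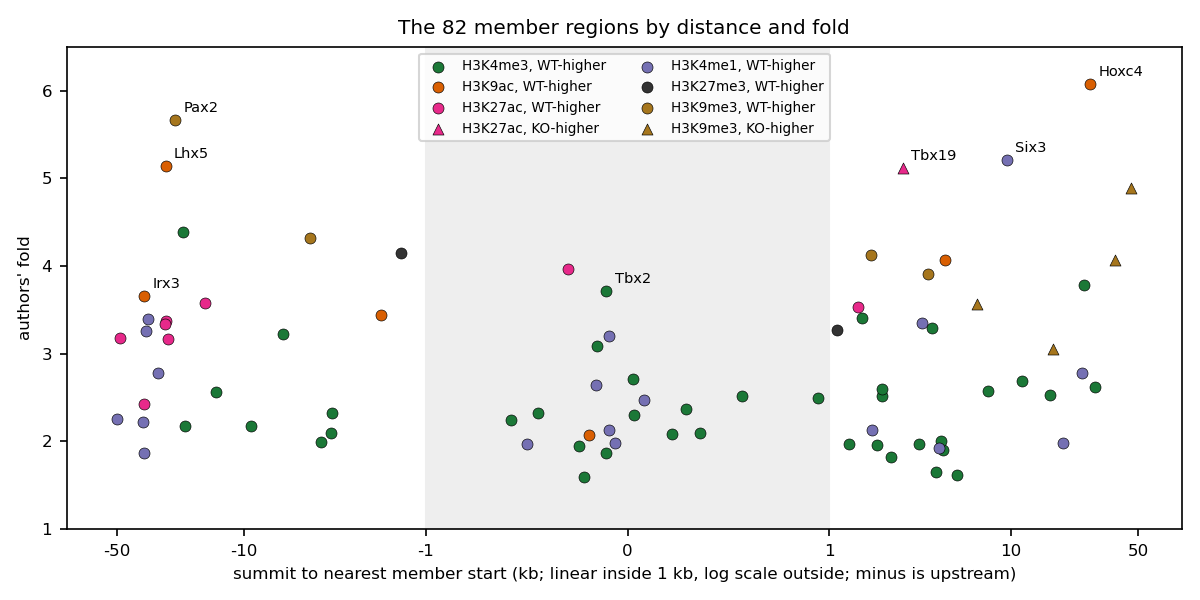
The 82 regions of the set by distance from the summit to the nearest start of their gene (kb, linear inside the grey 1 kb band and logarithmic outside it, minus for upstream) and authors' fold, coloured by mark, with triangles for KO-higher regions. Folds of H3K4me3 regions run from 1.59 to 4.39, and the upstream acetylated regions of Irx3 and Lhx5 lie between 26134 and 48184 bp from their starts.

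T-box genes had WT-higher H3K4me3 at 6 of 13, beside 15.3% of all genes. Tbx2, a repressor active in limb and heart development, had the H3K4me3 region with the highest −log10 q of the set (chr11:85645867-85646063, pileup 66, fold 3.71, −log10 q 13.4), 106 bp upstream of its start. Tbx1, known for its role in the pharyngeal arches, had 2 H3K4me3 regions (folds 1.62 and 1.99) and an H3K27ac region 16332 bp upstream (fold 3.58). Tbx20, a cardiac regulator, had H3K4me3 (fold 1.65) and WT-higher H3K9me3 (fold 3.91) regions, 3865 and 3467 bp past the start.

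Tbx19, the activator of pituitary proopiomelanocortin, was the gene with KO-higher H3K27ac. The region (chr1:167088300-167088470, pileup 20, fold 5.12) lay in its intron, 2539 bp past the start, and its fold was above 96.7% of the list. Tbx19 also had a KO-higher H3K9me3 region (fold 4.07) 37132 bp past the start and no WT-higher region.

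Nkx genes, the largest family of the set outside the Hox clusters, had WT-higher H3K4me3 at 8 of 14, with 11 regions, beside 15.3% of all genes. Nkx2-5, a cardiac homeobox gene, had H3K4me3 (fold 2.17) and H3K27ac (fold 3.34) regions 21175 and 27252 bp upstream, inside introns of the noncoding genes Gm17382 and Gm20468. Folds of the 11 regions were 1.82 to 3.41. Of the 6 sine oculis-related genes, 5 had a region of some list. Six3, a forebrain and eye regulator, had the H3K4me1 region with the highest fold of the set (chr17:86029707-86030008, pileup 22, fold 5.21), 9454 bp past the start. Six5 had H3K27ac in its intron (fold 3.53) and H3K4me3 at its start (fold 1.59), the lowest fold of the 39 H3K4me3 regions.

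Pax6, a regulator of eye and islet cells, had the H3K4me3 region with the highest fold of the set (chr2:105487212-105487380, fold 4.39), but its pileup was only 12 and it held no CpG. It lay 21707 bp upstream, in an intron of Pax6os1. A WT-higher H3K27me3 region (fold 3.27) lay in a Pax6 UTR. Pax2, a kidney regulator, had 2 H3K4me3 regions (folds 2.56 and 2.25), an H3K4me1 region (fold 2.78) and a WT-higher H3K9me3 region (fold 5.66) 23890 bp upstream. Dlx4 had a WT-higher H3K9me3 region alone (fold 4.32).

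Repressive marks gave 10 regions of the set. WT-higher H3K27me3 lay at 2 genes (1.98%), beside 0.866% of all genes. WT-higher H3K9me3 lay at 4 (3.96%), beside 1.09%, and KO-higher H3K9me3 at 3 (2.97%), beside 2.28%. All of these lay 1 to 50 kb from a start, where the shares of all genes were 0.792%, 1.02% and 2.19%, and within 1 kb, where they were 0.0829%, 0.0875% and 0.106%, no gene of the set had a region. The Wilson intervals of these shares are wide (0.545% to 6.93%, 1.55% to 9.74% and 1.02% to 8.37%). They cover counting error only and are no test of the set against all genes. H3K27me3, the Polycomb mark, thus gave regions at Hoxb3 and Pax6 only, in a list of 395 regions that has no KO-higher counterpart.

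Sequence composition differed between distance bands that also differed in their mix of marks. The 22 WT-higher active regions within 1 kb of a start had a median GC content of 66.4% and a median observed over expected CpG of 0.737. The 20 at 1 to 5 kb had medians of 64.6% and 0.694, and the 29 at 5 to 50 kb had 57.8% and 0.249. Median folds over the same bands were 2.31, 2.11 and 2.78. From the nearest band outward, H3K4me3 gave 14, 14 and 11 of these regions and H3K4me1 6, 3 and 9. Distance and mark were not separated. Of the 201 bp windows centred on summits, the homeodomain core TAATTA, searched on both strands, was in 1 of 82 (1.22%), beside 1.23% of 23378 windows of all lists. The T-box core GGTGTGA, also on both strands, was in 3 (3.66%), beside 3.25%.

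**Figure D5:**
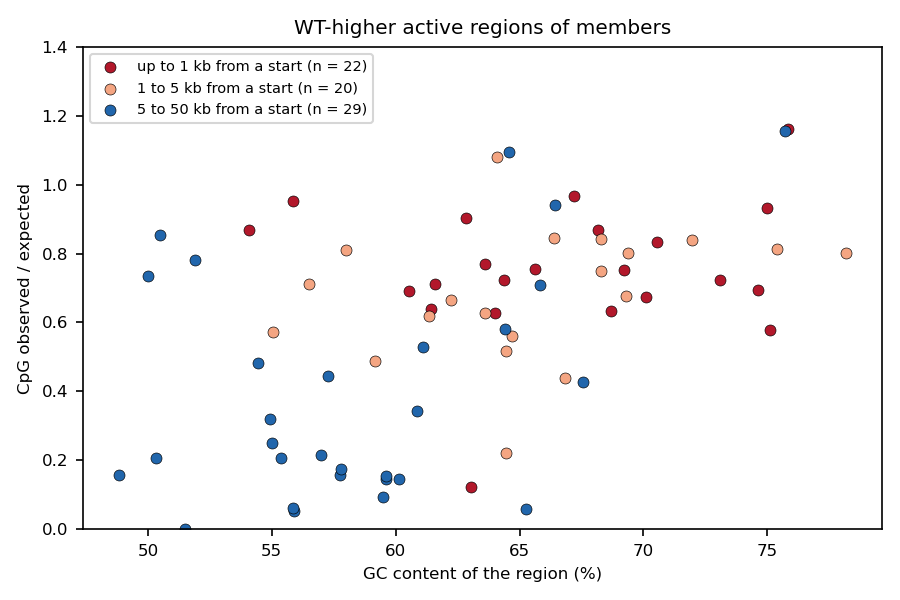
GC content (percent) and observed over expected CpG of the 71 WT-higher active regions of the set, coloured by distance to the nearest start. Most regions beyond 5 kb lie below a CpG ratio of 0.5, and those within 1 kb have a median of 0.737.

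RNA values were available from the authors' deposited table, which gives the nearest gene of each H3K4me1 region and compares KO with WT. It names 13 genes of the set, of which 10 have a value. In the authors' deposited table none of the 10 passed an FDR of 0.05 and none had an unadjusted p under 0.05, while 226 of 1549 genes with a value (14.6%) passed that FDR. The lowest p among them was 0.225 (FDR 0.743), for Tbx18 at a log2 fold change of −1.76 in the authors' deposited table. Hoxb3 was at −0.06 and Hoxb6 at −0.15 in the authors' deposited table. Lhx5 had the largest value there, 3.34, with p = 0.510 and an FDR of 1 in the authors' deposited table. Values were below 0 for 5 genes, above 0 for 3 and listed at 0 with a p of 1 for 2 in the authors' deposited table. A p above the threshold does not show that RNA was unchanged, and Irx3 and Lhx6 have no value there.

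Genes that act with or on these factors were read from lists chosen by role. Among all protein-coding genes the shares were 27.6% for a WT-higher active region, 12.4% for a KO-higher one, 15.3% for WT-higher H3K4me3 and 11.6% for KO-higher H3K27ac. Of 11 TALE homeobox genes, which include Meis cofactors of Hox proteins, 8 had a WT-higher active region, 5 had WT-higher H3K4me3 and none had a KO-higher active region. Meis3 had 3 WT-higher marks (H3K27ac fold 2.98, H3K4me3 2.45, H3K9ac 2.02). Of 24 Polycomb subunit genes, 14 had a WT-higher and 6 a KO-higher active region, the latter including Eed (H3K27ac fold 3.27) and Pcgf5 (6.39). Of 12 genes for H3K4 methyltransferase complexes and H3K27 demethylases, 6 had a WT-higher and 2 a KO-higher active region. Of 12 enteroendocrine markers, 4 had a WT-higher and 2 a KO-higher one. Of 57 developmental transcription factor genes outside the families of the set, 34 had a WT-higher active region, 22 had WT-higher H3K4me3 and 4 had a KO-higher active region. Of 20 intestinal transcription factor genes, 11 had a WT-higher and 11 a KO-higher active region, with KO-higher H3K27ac at 9, among them Hnf4g (fold 3.62) and Isx (fold 3.87). These genes are named as examples chosen after their values were seen.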

How the data were processed

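The 16 samples comprised 12 ChIP libraries, 1 per mark and genotype, and 4 inputs (2 per genotype), which were not analysed here. Per the labels' protocols, single-end reads of 50 cycles were mapped to mm9. Tools named in the submitters' processing notes are MACS2 2.1.1, HOMER 3.12, Bowtie2 2.2.9 and CASAVA 1.8.2. The file headers give another caller version, MACS 2.0.10.20130419, with tags of 75 bp, and which holds is unknown. Each call used the opposite genotype's library as its control, allowed 1 tag per position and took q below 0.05, per the file headers. Deposited with each region are a pileup signal, a fold (the ratio of that pileup to local background) and, on a −log10 scale, a p-value and a q-value. They described and filtered regions within a list. The authors' RNA table gives log2 fold changes, p-values and FDR. The direction was read as KO over WT from its column name, and no source used here names the tool. In the same file 12 columns of single RNA libraries belong to no sample of the series and were not used.

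Regions were joined to GENCODE models of mm9 with Python 3.11.15, numpy 2.4.6 and pandas 2.3.3, each to the protein-coding gene with the nearest start of any transcript within 50 kb. The background holds no genes of chromosomes 18 and Y. The lists hold 89 regions on a sequence named UGT1A, which took part in no count of genes. A pair of gene models shares the symbol Hoxa3 and was counted as 1 gene. Shares carry 95% Wilson intervals. The assignment was tested on simulated summits, and 2000 of 2000 planted ones were recovered.

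The members, the lists for context and the alternatives were chosen with earlier results of these data known. Genes named were every Hox gene with a region, the 12 other members with regions in the most lists, the 3 with the highest fold in each list, and any past the RNA FDR, which gave 26. Some of these are not reported here, although counts include them. Alternatives were other windows (10 and 100 kb), −log10 q of at least 5, starts of all genes, 5-prime ends, a promoter of 2.5 kb and, added after the data were seen, a 1 kb window, a limit on GC content, and counts without H3K9ac or the Hox clusters.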

Additional observations from a re-analysis of the deposited data

How the results depend on the processing

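With 1 library per mark and genotype, no value carries replicate error, and tag depth after duplicate removal limits regions of low pileup. No paired analysis was possible because each genotype has 1 library per mark, and replicate numbers are shared only by the inputs, which were not analysed here. Of 54 alternative counts of genes, 37 stayed within 1.5 times. Percentages beside counts are shares of all genes at the same setting. A −log10 q of at least 5 leaves fewer regions by construction. It left 8 genes for WT-higher H3K4me3 (beside 5.75% of all genes), 3 for H3K9ac (2.38%), 4 for H3K4me1 (3.44%), 0 for H3K27me3 (0.124%), 2 for WT-higher (0.401%) and 0 for KO-higher H3K9me3 (0.622%). The share of the set was then near that of all genes for H3K9ac and H3K4me1. For H3K4me3, 8 of 101 genes beside 5.75% was a smaller gap than 33 of 101 beside 15.3% at the main setting. It also left 4 genes with H3K4me3 1 to 50 kb from a start (beside 1.41% of all genes), and 2 with H3K4me3 and another active mark. Requiring a shared base for that pair also left 2, and no share of all genes was computed for the pair. A window of 10 kb gave 3 genes for WT-higher H3K9ac (5.93%), 2 for WT-higher H3K27ac (5.53%) and 1 for KO-higher H3K9me3 (0.834%), and a window of 100 kb gave 2 for KO-higher H3K27ac (12.1%). Starts of all annotated genes, noncoding ones included, gave 3 for WT-higher H3K9ac (6.78%), 2 for WT-higher H3K27ac (6.79%), 1 for KO-higher H3K9me3 (1.92%) and 13 for H3K4me3 at 1 to 50 kb (2.95%). Within 1 kb, H3K4me3 lay at 14 genes (12.1%) and any WT-higher active mark at 19 (17.5%). The limit on GC content left 5 genes for H3K4me3 (0.977%) and 5 for H3K4me3 at 1 to 50 kb (0.779%), and 0 for WT-higher H3K9ac (0.705%) and H3K27ac (1.17%), where it kept 217 of 2151 and 412 of 2510 regions. At these settings fewer or other regions are counted by construction. Any other cause was not tested. Without H3K9ac 41 of the 101 genes had a WT-higher active mark, and without the Hox clusters 32 of the remaining 62. No share of all genes was computed for these 2 counts. No setting gave a gene of the set a KO-higher H3K4me3 or H3K9ac region.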

Other observations

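Some regions lay within 50 kb of a gene of the set but nearer to another protein-coding gene, and they are in none of the counts above. There were 7 such WT-higher H3K4me3 regions, and 4 each of WT-higher H3K9ac, H3K27ac and H3K4me1. KO-higher ones comprised 5 with H3K27ac and 2 with H3K9ac. The KO-higher ones lay at Oat, which encodes ornithine aminotransferase, near Nkx1-2 (H3K27ac folds 1.78 and 2.27), at Unc93b1 and Ndufv1 near Tbx10 (2.95 and 3.33), and at Psd4 near Pax8 (H3K27ac 1.56, H3K9ac 5.96). The other was an H3K9ac region at Itga3, an integrin subunit gene, near Dlx3 (2.30). A WT-higher H3K9ac region (fold 3.53) lay 1722 bp from the start of Irx5 and 46 bp from that of 4933436C20Rik.

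Assignment among the neighbours of these genes was loose. With every annotated gene counted, noncoding ones included, 30 of the 82 regions lay nearer to the start of a gene outside the set, 7 of the 17 at Hox genes and 23 of the 65 others. With the 5-prime end of each gene alone, 4 regions moved to another gene, all of them in Hox clusters, and 1 of these to no gene of the set. Among developmental transcription factor genes of other families, the KO-higher active regions were at Barhl2 (H3K27ac fold 2.52), Pdx1 (3.50), Prrx1 (3.9) and Barx2 (H3K4me3 6.89). These genes were named after their values were seen.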
